A study of Mus musculus with 7 samples.

Results

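The postsynaptic density is the protein mesh beneath the membrane of an excitatory synapse, and the 36 genes described here encode scaffolds and signaling proteins of the postsynaptic side, most of them of this density and 1, Gphn, of inhibitory synapses. They were chosen by name, as protein-coding genes of 5 roles: membrane-associated guanylate kinases and PDZ scaffolds, deep scaffolds, calcium-calmodulin signaling, small GTPase regulators, and actin, catenin and inhibitory anchors. Of 55416 genes in the deposited file, 21885 were protein-coding, 17254 had enough reads for testing, and all 36 members were among those tested.

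RNA-seq was run on the prefrontal cortex (PFC) of female C57BL/6 wild-type mice after bilateral injection of an adeno-associated virus (AAV). Ctr mice received the control AAV (3 libraries), Ref mice received AAV carrying the human lncRNA PAXIP1-AS1 with the C allele, the reference allele of rs112651172 (2 libraries), and Alt mice received the same lncRNA with the alternative G allele (2 libraries). All 3 groups thus share the surgery and a virus, whose vector also carries EGFP, a green fluorescent protein. The lncRNA was driven by the human synapsin promoter, which is active in neurons, so that it was expressed beside an intact mouse genome that has no counterpart of this lncRNA. The transgene itself was not analysed here, and the labels give no age. Nothing in the labels says whether the libraries of a group came from separate animals. The p-values set a group difference against the spread between libraries, which may be technical in part. They may therefore not speak for differences between mice.

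In an excitatory synapse, glutamate receptors are held opposite the release site by layers of scaffold. Membrane-associated guanylate kinases bind receptor tails, Dlgap proteins tie them to Shank proteins below, and Homer proteins cross-link Shank with metabotropic glutamate receptors. Calcium entering through the receptors binds calmodulin, which activates the kinase CaMKII and the phosphatase calcineurin. Regulators of small GTPases of the Ras, Rap, Rac and Arf families pass the signal on to receptor traffic and to the actin of the spine.

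Values are given as CPM (a gene's share of the reads of a library on a common scale) after TMM scaling, unless a level is compared between genes, for which TPM (the same kind of share, per gene length) are used. Differences are log2 differences between groups with the standard error (SE) from edgeR's quasi-likelihood test. A member is called higher or lower at an unadjusted p under 0.05 in edgeR, referred to as the line, and the main counts are set beside the share of all genes tested that passed the same line. Adjusted p-values are Benjamini-Hochberg values over all genes tested.

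Total counts per library lay between 16655697 and 20750857, and the Alt libraries were the shallowest. Alt replicate 1 stood apart from the other 6 libraries. Its log2 difference from the Ctr mean increased by 0.23 for each doubling of gene length, against -0.04 to 0.08 in the others, and the count difference between the Alt libraries exceeded sampling noise by more (chi-square per degree of freedom 58) than between libraries of Ctr or Ref (18.6 to 25). The members are long, with a median length of 9542 bases against 4051 over all genes tested. The main counts are therefore also given without Alt replicate 1 and after a length correction.

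Promoter windows of 300 bases (250 before and 50 after the annotated start, RefSeq, build GRCm38.p6) were at hand for 30 of the 36 members, in 52 windows. Shank1, Shank2, Camk2a, Camk2g, Dlgap2 and Ppp3ca were not matched. The 4 that follow belong to the members the comparisons turn on: Lrrc7 and Agap2, which were higher in Alt, Homer1, which was lower in Ref, and Nrgn, the member highest by TPM. They were picked after their values were seen. Sequences run 5′ to 3′ on the gene's strand, and capitals mark a GC box, searched as GGGCGG on both strands (its reverse complement reads CCGCCC).
Lrrc7, chr3:158561712-158562011, minus strand: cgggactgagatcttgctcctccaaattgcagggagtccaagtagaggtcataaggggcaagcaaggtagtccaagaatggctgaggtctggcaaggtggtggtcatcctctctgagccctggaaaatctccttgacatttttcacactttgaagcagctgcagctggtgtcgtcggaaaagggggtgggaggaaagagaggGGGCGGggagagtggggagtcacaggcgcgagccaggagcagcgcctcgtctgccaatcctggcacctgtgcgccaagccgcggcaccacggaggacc
Agap2, chr10:127078657-127078956, plus strand: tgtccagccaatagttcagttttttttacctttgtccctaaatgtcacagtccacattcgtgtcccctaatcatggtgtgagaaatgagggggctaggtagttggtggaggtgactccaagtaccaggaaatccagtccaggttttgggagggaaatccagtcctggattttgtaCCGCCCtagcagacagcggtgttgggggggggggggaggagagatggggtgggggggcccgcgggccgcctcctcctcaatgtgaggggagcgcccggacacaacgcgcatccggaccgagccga
Homer1, chr13:93303507-93303806, plus strand: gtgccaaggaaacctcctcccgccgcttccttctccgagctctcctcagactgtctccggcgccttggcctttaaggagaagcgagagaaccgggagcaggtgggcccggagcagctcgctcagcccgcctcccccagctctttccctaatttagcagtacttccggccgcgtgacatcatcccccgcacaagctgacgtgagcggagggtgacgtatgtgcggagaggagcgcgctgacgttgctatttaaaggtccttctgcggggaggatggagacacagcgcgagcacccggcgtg
Nrgn, chr9:37552696-37552995, minus strand: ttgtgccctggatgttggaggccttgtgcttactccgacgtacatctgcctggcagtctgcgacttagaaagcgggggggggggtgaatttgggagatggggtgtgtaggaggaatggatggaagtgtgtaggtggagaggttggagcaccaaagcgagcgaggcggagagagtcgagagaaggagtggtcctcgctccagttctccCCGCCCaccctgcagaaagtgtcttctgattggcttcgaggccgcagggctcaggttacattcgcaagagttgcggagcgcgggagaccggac

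A GC box occurred in 29 of the 52 member windows (55.8%) and in 35.7% of 32851 windows of all genes. It was present in 25 of the 30 matched members, and in 9 of the 11 matched members that were higher in Alt than in Ctr. The Homer1 window above holds none. Member windows had a median of 14 CpG dinucleotides against 7 over all windows. The cAMP response element TGACGTCA was found in 0 member windows (1.79% of all windows), the E-box CACGTG in 5.77% (7.15% of all), and the TATA box TATAAA in 11.5% (13.6% of all). These matches describe the letters in the windows and were not tested against expression.

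In Ctr PFC the member with the highest level per length was Nrgn, with 2170 ± 434 TPM (SD, n = 3), followed by Camk2a (1430 ± 183 TPM) and Agap2 (612 ± 147 TPM). Nrgn and Camk2a differed by more than their SDs. Neurogranin, the Nrgn product, holds calmodulin at low calcium, and Camk2a encodes the main CaMKII subunit of forebrain neurons. At the other end were Pick1 (2.82 ± 1.11 TPM) and Homer3 (3.74 ± 0.967 TPM), whose levels differed by less than their SDs, with Grip1 above them at 6.35 ± 1.74 TPM. Among the membrane-associated guanylate kinases Dlg4 was highest (160 ± 28.9 TPM), among the Shanks Shank1 (191 ± 58.4 TPM), and among the Homers Homer1 (104 ± 11.9 TPM).

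The tissue was checked against marker genes. The excitatory cortical markers Slc17a7 (664 to 1010 TPM over the 7 libraries) and Tbr1 (109 to 159 TPM) were present in every library. The striatal markers Drd1 (7.53 to 17.4 TPM) and Drd2 (0.355 to 4.25 TPM) were low. The libraries were bulk tissue, in which fewer cells of a type and less RNA per cell cannot be told apart.

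**Figure D1:**
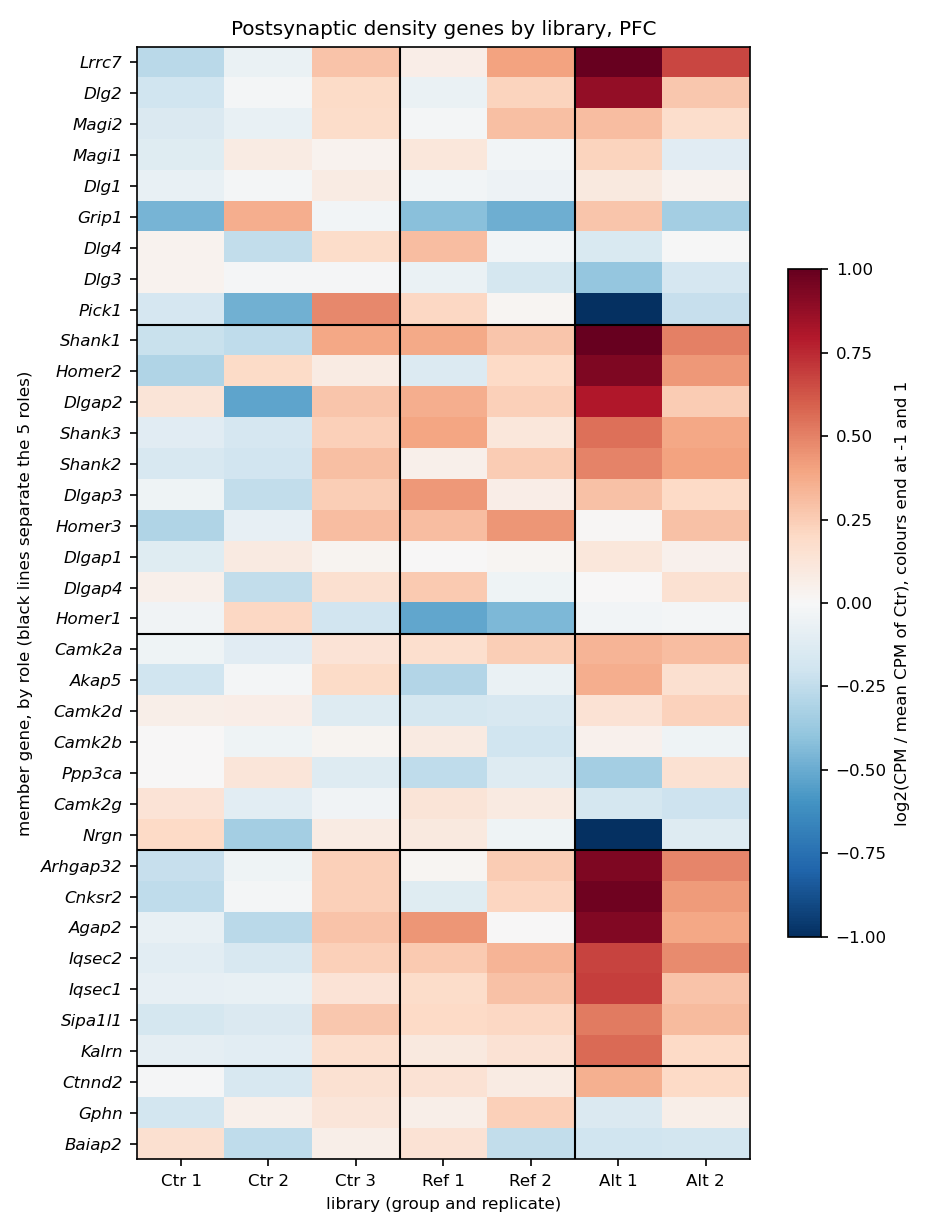
Heat map of the 36 members (rows, by role) in the 7 libraries (columns), coloured by the log2 ratio of CPM to the Ctr mean, with colours ending at -1 and 1. Most members are above the Ctr mean in Alt replicate 1 and Alt replicate 2 (27 of 36 in each), and 31 of 36 are above it in Ctr replicate 3.

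The members varied together between libraries of one group. Relative to the Ctr mean, their median log2 difference was -0.09, -0.07 and 0.17 in the 3 Ctr libraries, 0.11 and 0.09 in Ref, and 0.32 and 0.20 in Alt. The same median over all genes tested lay between -0.04 and 0.04 in every library. In Ctr replicate 3, 31 of 36 members were above the Ctr mean, against 10 and 8 in the other Ctr libraries, so that Ctr replicate 3 and Alt replicate 2 differed by little over the members as a whole.

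The comparison of Alt with Ctr asks which members differ between mice given the G allele transcript and mice given the control virus. At an unadjusted p under 0.05, 15 of 36 members were higher in Alt and 0 were lower. These were 41.7% of the members, while over all genes tested 19.8% passed, 9.45% higher and 10.3% lower. The median log2 difference was 0.25 for the members and -0.03 over all genes tested. After adjustment over all genes, edgeR left 0 members and 0% of all genes, whereas DESeq2's Wald test called 9 members higher (25%), against 5.03% of the 12905 genes to which it gave an adjusted p. Every Alt library was above every Ctr library for 16 members (44.4%, against 16.8% of all genes), and below for 2 members, Dlg3 and Camk2g (5.56%, against 18.1%).

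These counts depended on Alt replicate 1 and on gene length. Without Alt replicate 1, 6 members stayed higher at an unadjusted p under 0.05 (16.7%, against 3.68% of genes): Lrrc7, Shank1, Arhgap32, Iqsec2, Cnksr2 and Camk2a. The median log2 difference of all 36 members was then 0.20. The fit rests on 1 Alt library, which is assumed to vary like the other groups. After the length correction 7 members were higher (19.4%, against 7.3%), namely Lrrc7, Shank1, Homer2, Dlgap2, Agap2, Iqsec2 and Cnksr2, and 4 lower (11.1%, against 9.06%), namely Dlg4, Homer1, Dlgap1 and Dlg3. The median log2 difference was then 0.03. With both changes together 2 members, Lrrc7 and Iqsec2, were higher (5.56%, against 2.89%). Without Ctr replicate 2 the counts were 9 higher (25%, against 9.42%) and 1 lower, Nrgn (2.78%, against 9.82%).

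**Figure D2:**
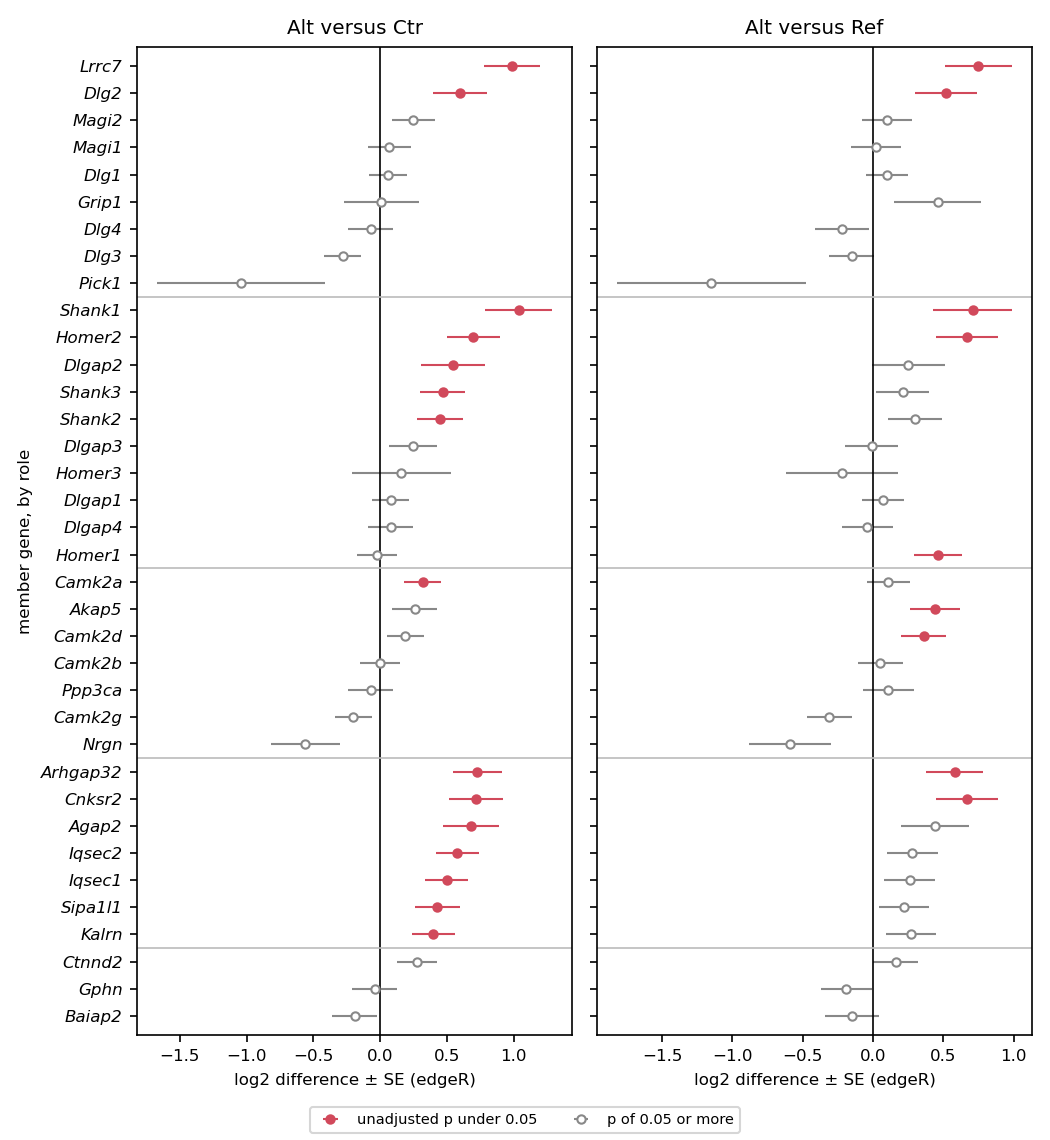
Log2 difference of each member with its SE from edgeR, for Alt versus Ctr (left) and Alt versus Ref (right), by role, with filled red points for an unadjusted p under 0.05. All 7 small GTPase regulators are among the 15 members called in Alt versus Ctr, and 9 members are called in Alt versus Ref.

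Among the membrane-associated guanylate kinases and PDZ scaffolds 2 of 9 members were higher in Alt than in Ctr, Lrrc7 and Dlg2 (22.2%, against 9.45% of all genes). Lrrc7 (ENSMUSG00000028176.14, chromosome 3, 157788528 to 158267858 as the table lists it) encodes densin, a scaffold that binds CaMKII. It had 49.5, 57.1 and 72.7 CPM in Ctr, 62.6 and 79.2 CPM in Ref, and 143 and 95.2 CPM in Alt. Both Alt libraries were thus above all others, while Ref and Ctr overlapped. The log2 difference between Alt and Ctr was 0.99 (SE 0.21, 1.99-fold, adjusted p = 0.12 in edgeR), with the smallest unadjusted p of any member. It was 0.67 without Alt replicate 1 (adjusted p = 0.489) and 0.74 after the length correction (adjusted p = 0.117), and passed the line both times. Dlg2 (ENSMUSG00000052572.20, chromosome 7, 90125880 to 92098455 as listed), a close relative of Dlg4, had 476, 540 and 625 CPM in Ctr, 521 and 640 CPM in Ref, and 1005 and 658 CPM in Alt. Its difference of 0.60 (SE 0.20, adjusted p = 0.143 in edgeR) was 0.27 without Alt replicate 1 (adjusted p = 0.706) and 0.09 after the length correction (adjusted p = 0.777), and neither passed the line.

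Dlg4, which encodes the best known scaffold of the excitatory postsynaptic density, had 632, 520 and 702 CPM in Ctr, 764 and 605 CPM in Ref, and 556 and 617 CPM in Alt. The groups overlapped, with a log2 difference of -0.07 between Alt and Ctr (SE 0.17, adjusted p = 0.859 in edgeR). After the length correction it was -0.43 (adjusted p = 0.27 in edgeR) and passed the line as lower. Dlg3, an X-linked member of the same family, was at 147 to 152 CPM in Ctr, 131 and 141 CPM in Ref, and 113 and 132 CPM in Alt (log2 difference -0.28, SE 0.14, adjusted p = 0.311 in edgeR). Dlg1, Magi1, Magi2 and Grip1 had differences between 0.01 and 0.25, and none passed the line. Pick1, which guides AMPA receptor traffic, had the lowest estimate of all members, at -1.04 (SE 0.63, adjusted p = 0.376 in edgeR). It rests on few reads, with 78 to 161 counts in the Ctr and Ref libraries, 82 in Alt replicate 2 and 9 in Alt replicate 1 (95% exact Poisson interval 4.12 to 17.1, for counting error only). The Pick1 difference without Alt replicate 1 was -0.23 (adjusted p = 0.908 in edgeR). Its reads may also be shared with Gm49486, a gene listed on the same strand over the same stretch.

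Of the 10 deep scaffolds, 5 were higher in Alt than in Ctr (50%, against 9.45% of all genes): Shank1, Homer2, Dlgap2, Shank3 and Shank2. Of these Shank1 alone stayed higher without Alt replicate 1. Shank1 (ENSMUSG00000038738.16, chromosome 7, 43959677 to 44009996 as listed) had 498, 486 and 759 CPM in Ctr, 756 and 704 CPM in Ref, and 1564 and 825 CPM in Alt. Its log2 difference of 1.04 (SE 0.25, 2.06-fold, adjusted p = 0.12 in edgeR) was the highest of the 36. Alt replicate 1 was far above the rest, while Alt replicate 2 lay just above Ctr replicate 3. Without Alt replicate 1 the difference was 0.51 and still passed the line. A gene on the opposite strand, 1700008O03Rik, overlaps it but had at most 22 reads in any library.

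Shank3 and Shank2 had smaller differences, with little difference between the Alt libraries. Shank3 had 199, 191 and 253 CPM in Ctr, 282 and 232 CPM in Ref, and 315 and 281 CPM in Alt. Its difference was 0.47 (SE 0.17, adjusted p = 0.163 in edgeR). Shank2 had 192, 187 and 263 CPM in Ctr, 222 and 255 CPM in Ref, and 302 and 283 CPM in Alt, a difference of 0.45 (SE 0.17, adjusted p = 0.184 in edgeR). For both, Alt was above every Ctr library, and neither passed the line after the length correction (0.25 and 0.16) or without Alt replicate 1 (0.39 and 0.40).

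Homer2 had 98.3, 138 and 128 CPM in Ctr, 110 and 139 CPM in Ref, and 231 and 163 CPM in Alt. The Alt libraries were above the other 5, by 0.70 over Ctr (SE 0.20, adjusted p = 0.124 in edgeR). The Homer2 difference was 0.43 without Alt replicate 1, which missed the line, and 0.34 after the length correction, which passed. Dlgap2, which joins the guanylate kinases to Shank, had 48.5, 30.7 and 53.6 CPM in Ctr, 57.0 and 52.3 CPM in Ref, and 77.2 and 52.7 CPM in Alt. The Alt and Ctr ranges overlapped, and the difference of 0.55 (SE 0.24, adjusted p = 0.223 in edgeR) was 0.25 without Alt replicate 1 (adjusted p = 0.788), which missed the line, and 0.48 after the length correction, which passed. The other Dlgap members did not pass the line. Dlgap3, the deep scaffold highest by TPM, had 342, 298 and 418 CPM in Ctr, 477 and 369 CPM in Ref, and 433 and 406 CPM in Alt (log2 difference 0.25, SE 0.18, adjusted p = 0.462 in edgeR). Dlgap1 and Dlgap4 each differed by 0.08 (adjusted p = 0.807 and adjusted p = 0.845 in edgeR), and Dlgap1 turned to -0.40 after the length correction (adjusted p = 0.192 in edgeR). Homer3, with 58 to 100 reads per library, differed by 0.16 (SE 0.37), and overlaps Ddx49 on the opposite strand, which had 120 to 304 reads.

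The calcium-calmodulin signaling genes held 1 member of 7 that was higher in Alt, Camk2a (14.3%, near the 9.45% of all genes). It had 3024, 2882 and 3423 CPM in Ctr, 3502 and 3680 CPM in Ref, and 3926 and 3845 CPM in Alt. The 3 groups did not overlap, with Alt highest, and the difference between Alt and Ctr was 0.32 (SE 0.14, 1.25-fold, adjusted p = 0.228 in edgeR). The Alt libraries of this gene were close to each other, and without Alt replicate 1 the difference was 0.31 (adjusted p = 0.612 in edgeR) and passed the line. After the length correction it was 0.18 (adjusted p = 0.451) and did not. The Camk2a difference also missed the line without Ctr replicate 1 (0.30) and without Ctr replicate 2 (0.27). So it did with the robust fit, without the low-count filter and with the compared groups alone. The other CaMKII subunits did not pass: Camk2b differed by 0.00 (SE 0.15), Camk2d by 0.19 (SE 0.14) and Camk2g by -0.20 (SE 0.14).

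Nrgn went the other way in 1 library. It had 1056, 725 and 974 CPM in Ctr, 982 and 891 CPM in Ref, and 404 and 838 CPM in Alt. Only Alt replicate 1 was below the range of Ctr, and the log2 difference was -0.56 (SE 0.26, adjusted p = 0.262 in edgeR). Without Alt replicate 1 it was -0.13 (adjusted p = 0.871), and after the length correction -0.26 (adjusted p = 0.474). With 1453 bases Nrgn is the shortest member. Ppp3ca, the catalytic subunit of calcineurin, was at 1490 to 1774 CPM in Ctr and at 1292 and 1811 CPM in Alt (log2 difference -0.07, SE 0.17, adjusted p = 0.858 in edgeR). Akap5, which anchors protein kinase A and calcineurin at the receptor, differed by 0.26 (SE 0.17, adjusted p = 0.399 in edgeR).

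All 7 small GTPase regulators were higher in Alt than in Ctr (against 9.45% of all genes), which no other role showed. Their median log2 difference was 0.58, and 7 of 7 had both Alt libraries above every Ctr library (against 16.8% of all genes). As this role was defined with earlier results of the data known, its count is a description. Their summed CPM was 3021, 3002 and 3916 in Ctr, 3856 and 3703 in Ref, and 5754 and 4277 in Alt. Ctr replicate 3 was thus above both Ref libraries, and Alt replicate 1 well above Alt replicate 2. Their median length of 12806 bases was the highest of the 5 roles, and after the length correction 3 of 7 stayed higher (Agap2, Cnksr2 and Iqsec2, against 7.3% of all genes), with a median of 0.24. The median was 0.38 without Alt replicate 1, and 3 of 7 stayed higher (Arhgap32, Cnksr2 and Iqsec2, against 3.68% of all genes).

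Arhgap32, a GTPase-activating protein that binds the scaffold, had 452, 516 and 627 CPM in Ctr, 538 and 634 CPM in Ref, and 1012 and 746 CPM in Alt. The Alt libraries were above the other 5, with a difference of 0.73 over Ctr (SE 0.18, adjusted p = 0.12 in edgeR). It was 0.49 without Alt replicate 1 (adjusted p = 0.554), which passed the line, and 0.24 after the length correction (adjusted p = 0.349), which did not. Cnksr2, an X-linked scaffold of Ras signaling, had 250, 294 and 351 CPM in Ctr, 274 and 346 CPM in Ref, and 584 and 401 CPM in Alt. Its difference was 0.72 (SE 0.20, adjusted p = 0.124 in edgeR), and 0.43 without Alt replicate 1, which still passed.

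Agap2 (ENSMUSG00000025422.11, chromosome 10, 126911153 to 126929038 as listed) acts on Arf GTPases and was the regulator highest by TPM. It had 1002, 877 and 1291 CPM in Ctr, 1436 and 1060 CPM in Ref, and 2004 and 1379 CPM in Alt. One Ref library was above Alt replicate 2, while both Alt libraries were above Ctr by 0.68 (SE 0.21, adjusted p = 0.136 in edgeR). Without Alt replicate 1 the difference was 0.38 (adjusted p = 0.653) and missed the line, and after the length correction it was 0.62 (adjusted p = 0.153) and passed. Iqsec2 and Iqsec1 encode exchange factors for Arf GTPases. Iqsec2, which is X-linked, had 189, 182 and 239 CPM in Ctr, 243 and 257 CPM in Ref, and 325 and 282 CPM in Alt. The groups lay in the order Ctr, Ref, Alt without overlap, and its difference of 0.58 (SE 0.16, adjusted p = 0.124 in edgeR) was 0.47 without Alt replicate 1 and 0.46 after the length correction. Iqsec1 had 260, 261 and 303 CPM in Ctr, 313 and 337 CPM in Ref, and 444 and 335 CPM in Alt (log2 difference 0.50, SE 0.16, adjusted p = 0.141 in edgeR). Alt replicate 2 was within the Ref range, and the difference was 0.29 without Alt replicate 1 and 0.04 after the length correction, neither of which passed the line.

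Sipa1l1, which switches off Rap, had 414, 423 and 563 CPM in Ctr, 536 and 538 CPM in Ref, and 671 and 583 CPM in Alt. Its difference was 0.43 (SE 0.17, adjusted p = 0.189 in edgeR). It missed the line without Alt replicate 1 (0.32) and after the length correction (0.07). Kalrn, an exchange factor that activates Rac in spines, had 454, 449 and 542 CPM in Ctr, 516 and 533 CPM in Ref, and 715 and 553 CPM in Alt. Its difference of 0.40 (SE 0.16, adjusted p = 0.201 in edgeR) was 0.20 without Alt replicate 1 and changed sign to -0.22 after the length correction (adjusted p = 0.446), and neither passed the line. With 24050 bases Kalrn is the longest member.

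The 3 actin, catenin and inhibitory anchors did not pass the line. Baiap2, which links membrane and actin, had 226, 169 and 210 CPM in Ctr, 223 and 170 CPM in Ref, and 176 and 178 CPM in Alt (log2 difference -0.19, SE 0.17, adjusted p = 0.581 in edgeR). Ctnnd2, delta-catenin, was at 263 to 326 CPM in Ctr and at 377 and 337 CPM in Alt (log2 difference 0.28, SE 0.15, adjusted p = 0.315 in edgeR), and passed the same line under DESeq2's Wald test (adjusted p = 0.193). Gphn, the scaffold of inhibitory synapses, differed by -0.04 (SE 0.17, adjusted p = 0.92 in edgeR).

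**Figure D3:**
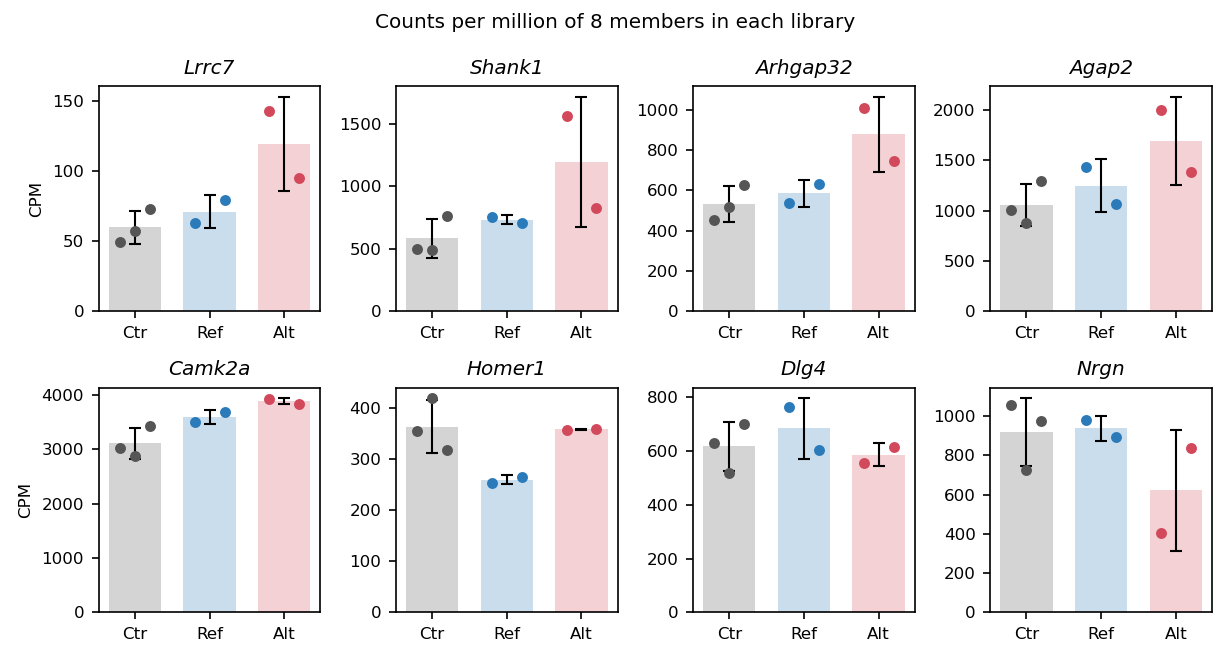
CPM of 8 members in each library (points), with the group mean (bar) and SD (error bar) for Ctr (n = 3), Ref (n = 2) and Alt (n = 2). Lrrc7, Shank1 and Arhgap32 have both Alt libraries above all others, Homer1 is lowest in Ref, and Nrgn is low in Alt replicate 1 alone.

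The comparison of Alt with Ref sets the G allele against the C allele of the same transcript. It shares the Alt libraries with the comparison above. At an unadjusted p under 0.05, 9 of 36 members were higher in Alt (25%) and 0 lower, while 15.5% of all genes passed, 6.71% higher and 8.83% lower. The median log2 difference was 0.19 for the members and -0.04 over all genes. Adjusted over all genes, edgeR left 0 members and 1 gene in all (0.0058%), and DESeq2 also left 0 members, with 10 higher (27.8%, against 8.54% of all genes) and 1 lower (2.78%, against 8.11%) at an unadjusted p under 0.05. Both Alt libraries were above the other 5 for 13 members (36.1%, against 11.6% of all genes).

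Lrrc7 had the highest difference between the alleles, 0.75 (SE 0.24, adjusted p = 0.236 in edgeR), followed by Shank1 at 0.71 (SE 0.28, adjusted p = 0.277), Cnksr2 at 0.67 (SE 0.22, adjusted p = 0.236), Homer2 at 0.67 (SE 0.22, adjusted p = 0.236), Arhgap32 at 0.58 (SE 0.20, adjusted p = 0.244) and Dlg2 at 0.52 (SE 0.22, adjusted p = 0.293). All 6 were also higher than in Ctr. Homer1, Akap5 and Camk2d passed against Ref alone. Akap5 had 77.7, 88.3 and 102 CPM in Ctr, 72.8 and 85.5 CPM in Ref, and 115 and 100 CPM in Alt, a difference of 0.44 between Alt and Ref (SE 0.18, adjusted p = 0.292 in edgeR). Camk2d had 148, 149 and 130 CPM in Ctr, 126 and 127 CPM in Ref, and 157 and 167 CPM in Alt, so that Ref was lowest and Alt highest, 0.36 apart (SE 0.16, adjusted p = 0.306 in edgeR). After the length correction Camk2d turned to -0.10.

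The number of calls depended on single libraries. Without Ref replicate 1 just 1 member, Agap2, was higher in Alt than in Ref (2.78%, against 1.3% of genes), while the median of the members remained at 0.19 and the calls over all genes went from 2680 of 17254 to 790 of 18874. In that fit Ref is a single library. Leaving out Alt replicate 1 gave a median of 0.09, and the members called were then Homer1, Camk2d and Ppp3ca (8.33%, against 2.35% of genes). After the length correction 5 members were higher (13.9%, against 7.42%) and 3 lower (8.33%, against 5.6%), and the median was -0.02. The 5 were Lrrc7, Homer2, Agap2, Akap5 and Cnksr2, and the lower were Dlg4, Camk2g and Dlgap1.

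Between Ref and Ctr, which differ by the C allele transcript, few members stood apart. Only 1 of 36 passed at an unadjusted p under 0.05, Homer1, which was lower in Ref (2.78%), and 0 were higher. Over all genes 3.14% passed, 2.19% higher and 0.945% lower, so that the members' share was near the background. With adjustment edgeR left 0 members and 0% of all genes, and DESeq2 also 0 members. The median of the members was 0.12, against 0.01 over all genes.

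Homer1 (ENSMUSG00000007617.19, chromosome 13, 93436143 to 93541637 as listed) encodes long scaffold forms and a short activity-induced form, which gene counts do not separate. It had 355, 420 and 318 CPM in Ctr, 254 and 266 CPM in Ref, and 358 and 360 CPM in Alt. Both Ref libraries were below all 5 others, while Alt lay within the range of Ctr. Homer1 was lower in Ref than in Ctr by -0.49 on the log2 scale (SE 0.16, 0.71-fold, adjusted p = 1 in edgeR) and higher in Alt than in Ref by 0.46 (SE 0.17, adjusted p = 0.247 in edgeR). The Ref difference was -0.56 after the length correction, and without 1 library at a time it stayed between -0.37 and -0.57. Without Ref replicate 1 it was -0.45 and did not pass the line. Iqsec2, Iqsec1 and Camk2a had both Ref libraries above every Ctr library (log2 differences 0.30, 0.24 and 0.21, adjusted p = 1 in edgeR for each). Dlg3 and Camk2d, beside Homer1, had both below (log2 differences -0.13 and -0.17), and none of these 5 passed the line. The 3 above were 8.33% of the members, against 12.4% of all genes, and the 3 below, Homer1 included, 8.33% against 10.5%.

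Over the order Ctr, Ref, Alt, scored 0, 1 and 2, the slope was positive for 15 members at an unadjusted p under 0.05 (41.7%) and negative for 0. Over all genes 16.7% passed, 8.85% with a positive and 7.89% with a negative slope. These were the same 15 genes as in Alt versus Ctr, and both tests use the Alt and Ctr libraries. The steepest slopes were those of Shank1 (0.51 per step, SE 0.13, adjusted p = 0.166 in edgeR) and Lrrc7 (0.48 per step, SE 0.11, adjusted p = 0.166 in edgeR). No member passed adjustment in edgeR (0 of 36, and 0% of all genes), and in DESeq2 with the same score 7 of the 34 members given an adjusted p did so with a positive slope (20.6%, against 3.47% of 11232 genes).

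**Figure D4:**
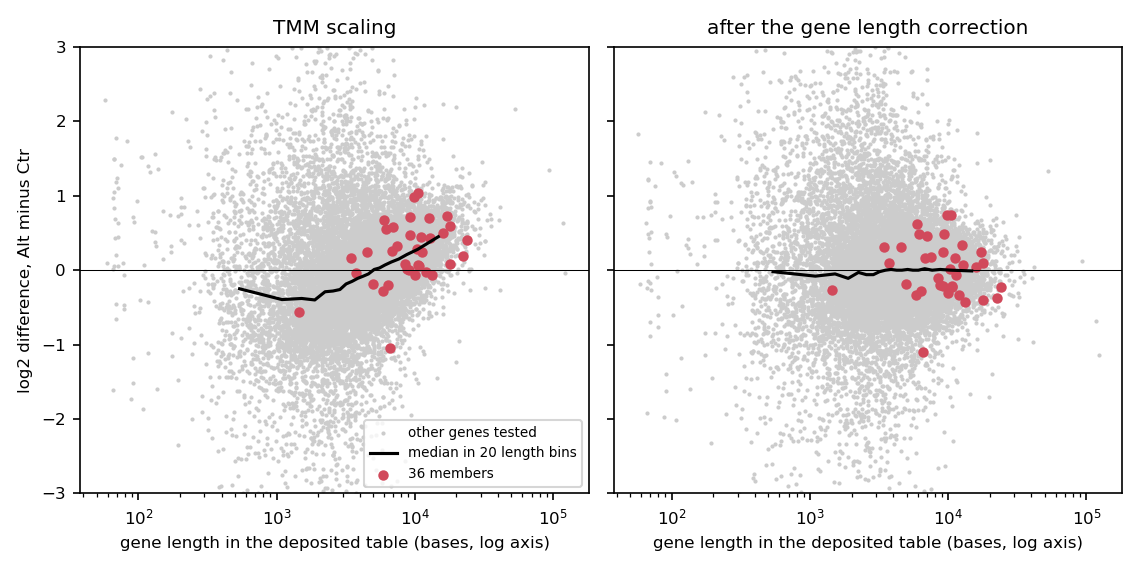
Log2 difference between Alt and Ctr against gene length (log axis) for the genes tested (grey) and the 36 members (red), with the median in 20 length bins (black), before and after the length correction. The y axis ends at -3 and 3. Before correction the median increases with length and many members sit among the longer genes, and after it the members lie around 0 with a median of 0.03.

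Gene length moved with these differences. Across the 36 members the log2 difference of Alt versus Ctr correlated with log2 length (Pearson's r = 0.406, n = 36 genes), and so it did across all genes tested (r = 0.197, n = 17254). After the correction r was -0.0879 over the members and 0.0271 over all genes. For Alt versus Ref r was 0.518 over the members and for Ref versus Ctr -0.144. The genes share the libraries and are not independent, so these are descriptions. As examples, 3 members of similar length had unlike estimates in Alt versus Ctr. Lrrc7 (9816 bases) differed by 0.99 (SE 0.21), Grip1 (8780 bases) by 0.01 (SE 0.28) and Dlg1 (10736 bases) by 0.06 (SE 0.14). Whether length, or what goes with it in Alt replicate 1, had a part in the differences was not tested beyond this correction.

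**Figure D5:**
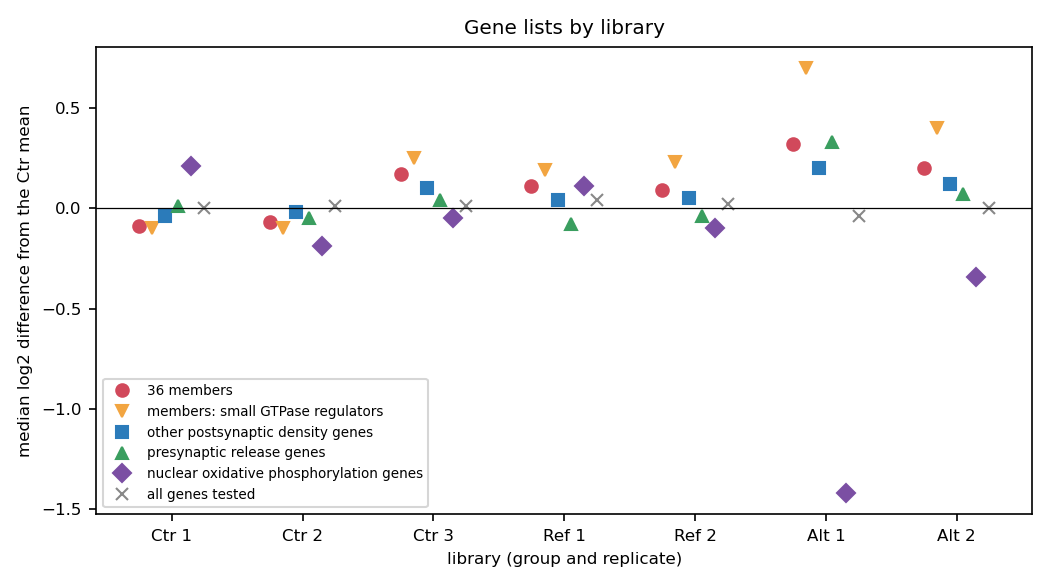
Median log2 difference from the Ctr mean in each library for the members, their small GTPase regulators and 4 other sets of genes. In Alt replicate 1 the members are at 0.32, the small GTPase regulators at 0.70 and the oxidative phosphorylation genes at -1.42, with smaller values of the same sign in Alt replicate 2.

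Other genes of the synapse were taken from a list of 70 further postsynaptic density genes, of which 69 were tested. In Alt versus Ctr 21 of them were higher (30.4%, against 9.45% of all genes) and 3 lower (4.35%, against 10.3%), with a median log2 difference of 0.14, below the 0.25 of the members. The 3 with the smallest unadjusted p were Cyfip2 (0.71, SE 0.15), Iqsec3 (0.80, SE 0.17) and Nos1 (0.88, SE 0.20), each with an adjusted p of 0.12 in edgeR. Cyfip2 acts in actin assembly, Iqsec3 is an Arf exchange factor of inhibitory synapses, and Nos1 makes nitric oxide. Of 32 presynaptic release genes 7 were higher (21.9%, against 9.45%) and 3 lower (9.38%, against 10.3%), with a median of 0.23. Without Alt replicate 1, 7 of the other postsynaptic density genes (median 0.11) and 2 of the presynaptic genes (median 0.07) were higher, beside 6 members (median 0.20) and 3.68% of all genes. After the length correction the medians were 0.07 for the other postsynaptic density genes and -0.02 for the presynaptic genes, beside the 0.03 of the members.

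Other signals moved with the groups. All 45 nuclear oxidative phosphorylation genes listed had a negative estimate in Alt versus Ctr, with a median of -0.86. At an unadjusted p under 0.05, 31 of them were lower (68.9%, against 10.3% of all genes). In Alt versus Ref 31 of the 45 were also lower (68.9%, against 8.83%), with a median of -0.89. In Alt replicate 1 they lay at a median of -1.42 from the Ctr mean and in Alt replicate 2 at -0.34, while the other 5 libraries ranged from -0.19 to 0.21. The median difference of these genes was -0.36 without Alt replicate 1, with 14 lower. Of the 10 excitatory markers 3 were higher in Alt than in Ctr (30%, against 9.45% of all genes) and 1 lower (10%, against 10.3%). The median of the excitatory markers was 0.02. Of the 8 inhibitory markers 0 were higher and 4 lower (50%, against 10.3%), with a median of -0.47. Their summed CPM was 260 in both Alt libraries, 284 and 290 in Ref and 295 to 372 in Ctr. The inhibitory median was -0.29 without Alt replicate 1, with 1 lower. Of the 10 oligodendrocyte markers 7 were higher in Ref than in Ctr (70%, against 2.19% of all genes), with a median of 0.77. In Alt versus Ref 7 were lower (70%, against 8.83%), 1 of them also after adjustment, with a median of -0.82. In Alt versus Ctr 2 were lower (20%, against 10.3%), with a median of -0.13. Their summed CPM was 3934 and 4878 in Ref, 2347 to 3283 in Ctr and 2272 and 2805 in Alt. Of 6 astrocyte markers 3 were higher in Ref than in Ctr (50%, against 2.19%). In Alt versus Ctr 1 of these 6 was lower (16.7%, against 10.3%). Of 6 microglia markers 1 was higher in Alt than in Ctr (16.7%, against 9.45%) and 2 were lower (33.3%, against 10.3%). In the same comparison 1 of 6 endothelial and mural markers was higher (16.7%, against 9.45%). There 1 of 10 striatal markers was lower (10%, against 10.3%). The part of these genes in the members' differences was not tested.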

How the data were processed

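RNA-seq of mouse PFC gave 7 libraries in the groups Ctr, Ref and Alt, taken from the sample labels. RNA was enriched for polyadenylated transcripts, and the kit text names a marking step for the second strand, while the strand setting of the counting is not given in the sources used here. The authors deposited 1 table with raw read counts per gene, the gene length in bases, and TPM values, which match the counts over length, rescaled per library. FPKM columns in the same table were not used. The submitters' processing notes name STAR, featureCounts and hg19, although the table holds mouse Ensembl genes. Its build is not named, its coordinates are given as listed, and they cannot be set beside those of the GRCm38.p6 promoter windows.

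Differences were tested on the counts as deposited with edgeR 4.0.16 under R 4.3.3 (TMM, filterByExpr by group, glmQLFit, glmQLFTest, all 7 libraries in 1 fit, Benjamini-Hochberg adjustment). Scripts were tested on simulated data. DESeq2 1.42.0 served as an alternative. The length correction removed a loess curve of span 0.3 on log2 length from each library's log2 CPM (prior count 2) through offsets in the model. Other alternatives were DESeq2 size factors, no low-count filter, a robust fit, the replicate block, the compared groups alone, and each library left out in turn. The length correction without Alt replicate 1 was chosen after seeing the data.

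Members, roles and gene lists were chosen with earlier results of these data known. All 36 members are named, with every library's value for those under an unadjusted p of 0.05 in a pairwise comparison and for the member highest by TPM in each role. From the list of other postsynaptic density genes only the 3 with the smallest p in Alt versus Ctr are named.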

Additional observations from a re-analysis of the deposited data

How the results depend on the processing

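For Alt versus Ctr, the count of members higher at an unadjusted p under 0.05 (15 of 36) became 7 after the length correction and 2 with that correction and without Alt replicate 1, an alternative chosen after seeing the data. The lower count (0) became 1 with DESeq2 (Nrgn), 2 without the low-count filter (Nrgn, Pick1) and 4 after length correction. In these fits 3643 of 17254, 4258 of 26895 and 2823 of 17254 genes passed in either direction. Members passing an adjusted p of 0.05 numbered 9 with DESeq2 and 9 without the filter, against 0. Over all genes 1097 of 12905 given an adjusted p and 1484 of 26895 passed, against 0. Leaving out 1 library at a time gave 6 to 15 higher, 0 to 4 lower and 0 to 13 at the adjusted line. The lowest was 6 without Alt replicate 1, with 9 higher and 1 lower without Ctr replicate 2, and the 4 lower (Nrgn, Pick1, Dlg3 and Ppp3ca) and 13 adjusted calls came without Alt replicate 2, where 6259 of 18848 genes passed the unadjusted and 3451 the adjusted line.

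For Alt versus Ref, the 9 higher became 5 after the length correction and 0 with that correction and without Alt replicate 1. The lower count became 1 with DESeq2, 2 without the filter and 3 after the length correction. Over all genes 2873 of 17254, 3329 of 26895 and 2247 of 17254 passed in either direction in these fits. Without the filter 5 members passed adjustment (850 of 26895 genes). Single libraries left out gave 1 to 12 higher, 0 to 2 lower and 0 to 9 adjusted, with 1 without Ref replicate 1, 3 without Alt replicate 1, and 2 lower and 9 adjusted without Alt replicate 2 (5451 and 2708 of 18848 genes at the 2 lines). The median of the members turned from 0.19 to -0.02 after the length correction.

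For Ref versus Ctr, 3 members were lower with the length correction and without Alt replicate 1, against 1, while over all genes 1407 of 18483 passed in either direction. Leaving out 1 Ctr library at a time gave 0 to 1 higher (1 without Ctr replicate 3) and 1 to 2 lower (2 without Ctr replicate 1). Over all genes 636 of 16997 passed in either direction without Ctr replicate 3, and 350 of 16965 without Ctr replicate 1. For the order, the 15 positive slopes became 6 after the length correction and 2 with that correction and without Alt replicate 1 (2466 of 17254 and 1291 of 18483 genes in either direction). Negative slopes numbered 1 without the filter and 2 after the length correction (4367 of 26895 and 2466 of 17254 genes in either direction). Adjusted calls numbered 7 with DESeq2 (596 of the 11232 genes given an adjusted p) and 6 without the filter (1136 of 26895). With DESeq2 on protein-coding genes they numbered 7 (568 genes in all). Leaving out 1 Ctr library at a time gave 9 to 15 positive (9 without Ctr replicate 1, 9 without Ctr replicate 2) and 0 to 1 negative (1 without Ctr replicate 2). Over all genes 1651 of 16965 passed in either direction without Ctr replicate 1, and 3061 of 16888 without Ctr replicate 2. Without Alt replicate 1 the median slope of the members was 0.10, against 0.12. Sign changes after the length correction included Dlgap1 (-0.40) and Kalrn (-0.22, and -0.12 also without Alt replicate 1) in Alt versus Ctr, and Camk2d (-0.10) in Alt versus Ref. Among members called in neither fit, signs also changed in Alt versus Ctr for Camk2d (-0.37), Magi1 (-0.22), Dlg1 (-0.21), Camk2b (-0.21, from 0.00), Grip1 (-0.20), Dlgap4 (-0.10), Magi2 (-0.06) and Gphn (0.09). The cause of these changes was not tested.

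The labels do not say whether replicate numbers pair the libraries across groups. Over all genes, same-numbered libraries correlated in their deviations from the group means by -0.0984 to 0.0702. In a group of 2 libraries the deviations mirror each other, so these values cannot decide whether the numbers pair the libraries. Over the 36 members alone these correlations were 0.555 and 0.464 between Ctr and Ref and -0.32 to -0.228 for pairs with Alt. With the replicate block 15 members were higher in Alt versus Ctr, 7 in Alt versus Ref and 3 in Ref versus Ctr (Shank1, Dlgap2 and Iqsec2, against 0), and 14 had a positive slope, while over all 17254 genes 2180, 1554, 430 and 2204 passed in either direction. DESeq2 size factors and the robust fit left the counts at 15 and 14 for Alt versus Ctr.

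Groups of 3, 2 and 2 libraries and 1 Alt library that stood apart limit every comparison. Depth limits Pick1 and Homer3, with no more than 161 and 100 reads in any library.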
